A study of Mus musculus with 33 samples.

Results

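The surface genes that mark resting microglia, the resident macrophages of the brain, were followed across mice without the transcription factors IRF8 or BATF3. The 10 genes, taken as a fixed list out of 54146 genes counted, were the nucleotide and nucleoside receptor genes P2ry12, P2ry13, P2ry6 and Adora3, the orphan or lipid receptor genes Gpr34 and Gpr84, the chemokine receptor gene Cx3cr1, the membrane protein gene Tmem119, the selectin ligand gene Selplg and the fructose transporter gene Slc2a5. All 10 passed the filter on low counts in every comparison. The list was not chosen by its values here, but it was drawn up with earlier results of these data known.

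RNA was measured in 33 libraries of microglia sorted from C57BL/6 mice, all labelled female, in 10 groups. The first experiment held WT and germline Irf8 knockout (IRF8KO) mice at 3 months, with 4 libraries each. At 9 months, WT, IRF8KO, 5xFAD and 5xFAD/IRF8KO mice were profiled, with 3 libraries each; 5xFAD mice are an amyloid model whose transgenes, mutant human APP among them, are driven in neurons by the Thy1 promoter. Batf3-/- mice (Batf3KO) and a WT group of their own were profiled at 3 months, with 3 libraries each. In the conditional experiment, mice with a floxed Irf8 allele were profiled at 3 months, 3 libraries without Cre (flox) and 4 with Cx3cr1CreERT2 (Cre), the latter as YFP-positive cells from a Rosa26LSL-EYFP reporter. Both conditional groups received tamoxifen on 5 days from postnatal day 12. The exons removed in the knockout alleles are not given in the sources used here. In the usual Cx3cr1CreERT2 lines the recombinase sits in the Cx3cr1 locus, so that for Cx3cr1 itself the effects of the driver allele and of Irf8 deletion cannot be told apart.

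Microglia survey the brain with fine processes, and these surface proteins are part of how they sense it. P2RY12 and P2RY13 respond to ADP released from damaged cells and direct process extension, P2RY6 responds to UDP and is tied to phagocytosis, and ADORA3 binds adenosine. CX3CR1 binds the neuronal chemokine fractalkine, GPR34 responds to lysophosphatidylserine, and GPR84, a receptor for medium-chain fatty acids, differs from the others in being known as induced by inflammation. IRF8 is a myeloid transcription factor that binds DNA together with PU.1 or with BATF-family proteins, and BATF3 is its partner in dendritic cells.

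All positions are on GRCm38, with gene models of GENCODE M21. P2ry12 (chromosome 3, 59216272 to 59262871, minus strand) and P2ry13 (chromosome 3, 59207892 to 59210882, minus strand) lie 5390 bases apart, both within the Mediator gene Med12l on the opposite strand. Tmem119 (chromosome 5, 113793729 to 113800516, minus strand) and Selplg (chromosome 5, 113818536 to 113832644, minus strand) are also neighbours, 18020 bases apart. The remaining genes are dispersed: P2ry6 on chromosome 7 (100937630 to 100974649, minus strand), Gpr34 on X (13632089 to 13640858, plus strand), Cx3cr1 on 9 (119901616 to 120069879, minus strand), Gpr84 on 15 (103308235 to 103310612, minus strand), Adora3 on 3 (105870858 to 105908926, plus strand) and Slc2a5 on 4 (150119283 to 150144169, plus strand). The counting ignored strand, and 39.5% of the exon bases of Gpr84 are shared with Gm49482 and 20.9% of those of Adora3 with Tmigd3, so that levels of Gpr84 and Adora3 are less certain. For P2ry12 and Cx3cr1 the shared part was 9 and 78 bases, and for the other 6 genes it was 0.

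Sequence upstream of the start was at hand for 6 of the 10 genes, from RefSeq on GRCm38.p6, and is shown for P2ry13 and Adora3, because both genes fell without Irf8 and their windows hold no annotated exon. The 250 bases before the start of P2ry13 are chr3:59210883-59211132 (minus strand) and those of Adora3 are chr3:105904171-105904420 (plus strand). The RefSeq start of Adora3 lies within the longer GENCODE model given above, so that this window is not upstream of that model. Capitals mark a match, on the minus strand and 30 bases before the start, to GAGGAAGT, a core sequence of PU.1 sites.
P2ry13: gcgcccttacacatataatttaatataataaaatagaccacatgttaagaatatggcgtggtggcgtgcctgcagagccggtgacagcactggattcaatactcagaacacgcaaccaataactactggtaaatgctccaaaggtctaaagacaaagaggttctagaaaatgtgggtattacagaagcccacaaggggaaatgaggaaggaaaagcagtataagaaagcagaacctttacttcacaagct
Adora3: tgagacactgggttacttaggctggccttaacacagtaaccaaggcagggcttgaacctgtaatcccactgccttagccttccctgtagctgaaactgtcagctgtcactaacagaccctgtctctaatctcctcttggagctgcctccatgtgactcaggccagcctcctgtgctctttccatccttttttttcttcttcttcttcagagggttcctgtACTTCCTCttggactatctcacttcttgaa
On both strands, GAGGAAGT was found in the window of Adora3 and of no other among the 6 genes, against 2.44% of 32851 RefSeq promoter windows. The ETS-IRF composite, GGAA and GAAA with 2 bases of any kind between them (2.30% of windows), and the interferon-type motif, GAAA and GAAA with 2 such bases between (2.98%), were found in none of the 6. Annotated exon filled all 250 bases of the windows of P2ry12 and Cx3cr1, 174 of that of Gpr84 and 61 of that of Slc2a5. Absence of a motif there says little about sequence upstream of these genes. The short ETS core GGAA, which the PU.1 core and the composite contain and which 93.4% of windows hold, occurred 3 times in that of P2ry13 and 4 times in that of Adora3.

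Counts in genes ranged from 605376 (WT at 9 months, replicate 3) to 18357762 per library. The targeted genes were checked first. Irf8 transcripts remained in the germline knockout, at 108, 104, 185 and 141 CPM (counts scaled to the size of the library) against 333, 253, 253 and 267 in WT at 3 months, and fell more at 9 months (log2 fold change -3.04, SE 0.54, edgeR adjusted p = 0.00152). Batf3 was near 0 in Batf3KO (0.429 to 0.508 CPM, against 23.1 to 27.7). In the conditional experiment, the library labelled Cre replicate 1 held 1126 CPM of Irf8, within the flox range of 953 to 1186, while the other 3 Cre libraries held 346 to 481. Of the 33 libraries, 16 held Xist without Y-linked transcripts, 13 the reverse, 3 both and 1 neither, although all were labelled female. Whether libraries of a group came from separate animals is not stated beyond the isolation of each brain, and the p-values therefore measure the spread between these libraries.

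Several groups held transcripts of other cells, the germline knockout groups and their 3-month WT group among them. The 14 neutrophil markers made up 7.73% to 16.7% of counts in IRF8KO at 3 months, 6.52% to 9.11% in IRF8KO at 9 months and 8.28% to 14.9% in 5xFAD/IRF8KO, with all 14 detected. In the 3-month WT group of the IRF8KO experiment they made up 0.862% to 5.38%, with Elane at 0, and in every other group at most 0.0112%. Monocyte markers (7 genes) averaged 0.850%, 1.02% and 1.32% in the knockout groups in the same order and 0.143% in that WT group, and red blood cell markers (5 genes) 5.03%, 8.29%, 4.86% and 6.41%, against at most 0.0900% elsewhere. Oligodendrocyte markers (6 genes) made up 0.716% to 1.11% of counts in IRF8KO at 9 months and 0.484% to 0.605% in 5xFAD/IRF8KO, against 0.0237% to 0.0273% in WT at 9 months. At 3 months they made up 0.321% to 3.70% in IRF8KO and 0.548% to 6.32% in its WT group. Border macrophage markers (8 genes) averaged 0.0766% in IRF8KO at 9 months, with Cbr2 and Folr2 at 0, and 0.0013% in WT, with all 8 detected. Astrocyte markers (6 genes) averaged 0.255% and 0.0212% in these 9-month groups. The 10 microglial markers averaged 0.919%, 0.650% and 0.677% in the 3 germline knockout groups, 2.05% in their 3-month WT group and 4.64% to 5.94% in the other 6 groups. In these bulk samples, fewer microglia in a sort and less of a transcript per microglial cell cannot be told apart. Levels are therefore also given per 1000 counts of 12 pan-macrophage genes (such as C1qa, Csf1r and Tyrobp), as an alternative scaling. These 12 genes made up 4.88% of counts in 3-month WT and 2.08% in IRF8KO, and 7.82% and 1.42% at 9 months. With edgeR, 7 of them had an unadjusted p under 0.05 in IRF8KO at 3 months, 11 at 9 months and 12 in 5xFAD/IRF8KO against 5xFAD. C1qa and Csf1r are also among the 10 microglial markers. The reference is thus not fixed, and falls shared with it do not show on this scale.

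**Figure D1:**
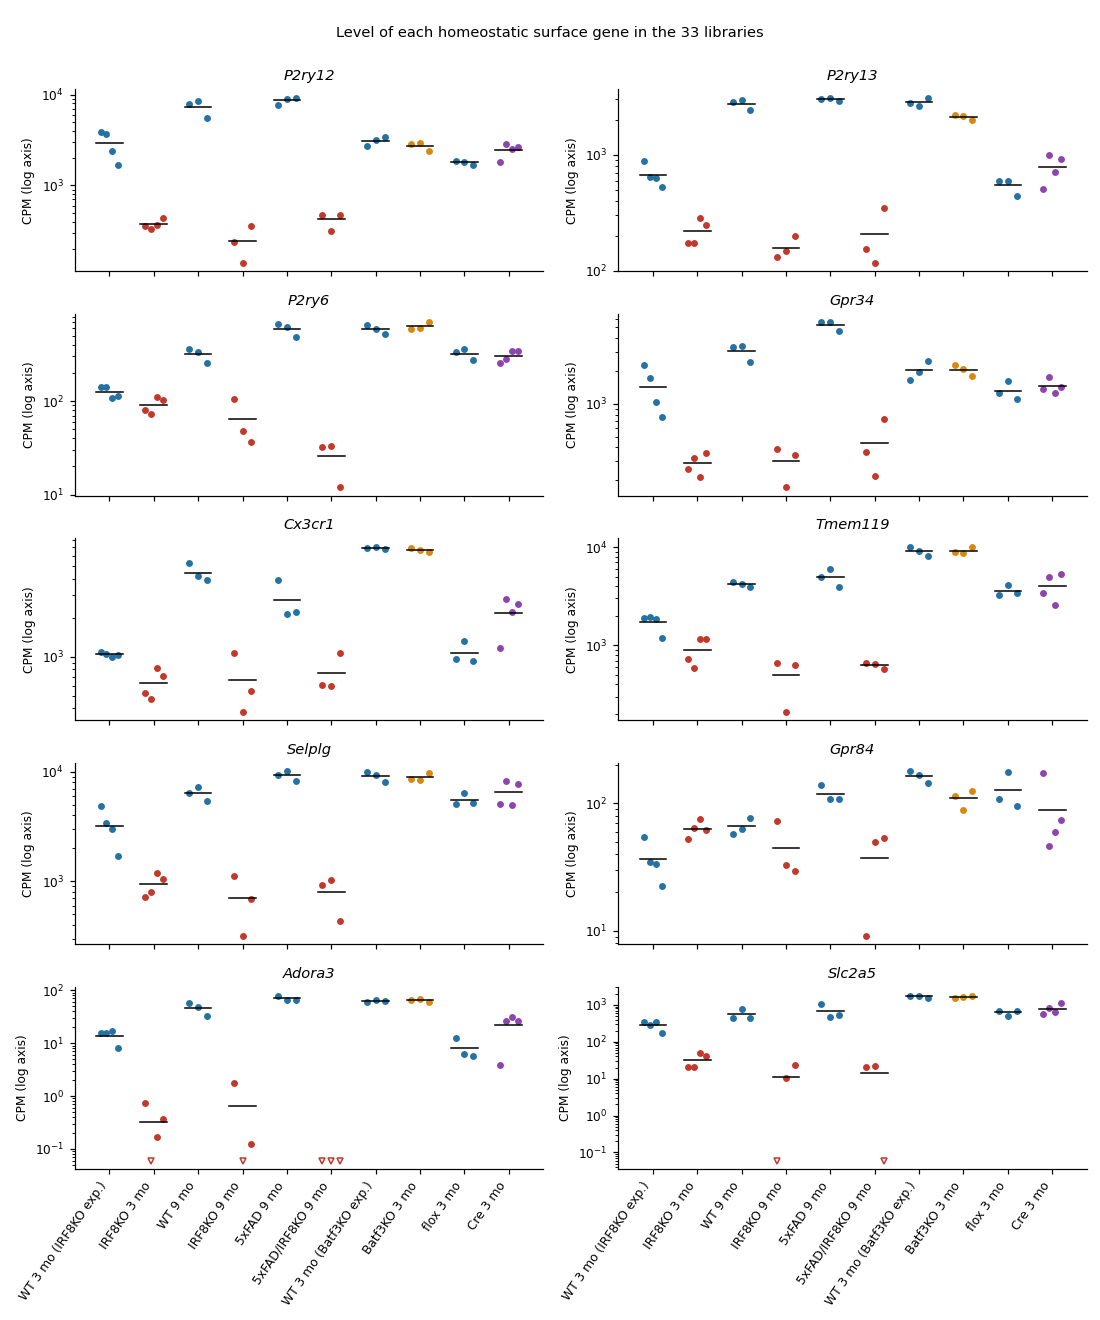
Level of each of the 10 genes (CPM scaled with TMM, log axis) in all 33 libraries, by group; each point is a library and each bar a group mean. The germline Irf8 knockout groups lie lowest for most genes, from 0 for Adora3 to 1183 CPM for Selplg, while Gpr84 has a narrow range.

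In the groups with Irf8, the genes stood at very different levels. Per kilobase of exon, P2ry12 was highest in WT at 9 months, at 2856 CPM per kb, followed by Tmem119 at 1808, Selplg at 1485, Gpr34 at 1463, P2ry13 at 1094 and Cx3cr1 at 986. Slc2a5 (163), P2ry6 (109), Gpr84 (38.2) and Adora3 (12.3) were lower still. In the WT group of the Batf3KO experiment the order differed, with Tmem119 first at 3929 CPM per kb, then Selplg (2124), Cx3cr1 (1540) and P2ry12 (1216). Together the 10 genes made up 4.15% ± 0.28 (SD, n = 3) of counts in WT at 9 months, 3.77% ± 0.25 in 5xFAD and 3.48% ± 0.05 in the WT group of the Batf3KO experiment. They made up 0.965% ± 0.274 (n = 4) in the 3-month WT group of the IRF8KO experiment and 0.314% ± 0.087, 0.269% ± 0.128 and 0.303% ± 0.045 in IRF8KO at 3 months, IRF8KO at 9 months and 5xFAD/IRF8KO.

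At 3 months, 6 of the 10 genes were lower in IRF8KO than in WT: the ADP receptor genes P2ry12 and P2ry13, Gpr34, Selplg, Adora3 and Slc2a5. None was higher, against 3.24% of 13121 tested genes called lower. Cx3cr1, Tmem119, P2ry6 and Gpr84 did not pass the test. The median log2 fold change of the 10 genes was -1.77, against -0.02 for all tested genes.

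P2ry12 was at 3861, 3679.9, 2376 and 1684 CPM in the WT libraries and at 353, 331, 369 and 441 in the IRF8KO libraries. The groups were far apart, with the lowest WT library well above the highest knockout library. The fall was 8.20-fold (log2 fold change -3.04, SE 0.40, edgeR adjusted p = 0.00199). P2ry13, its neighbour in the genome and fellow ADP receptor, was at 879, 640.1, 632 and 524 CPM in WT and at 174, 175, 283 and 246 in IRF8KO. These groups did not overlap either, and the difference was smaller, 3.22-fold (log2 fold change -1.68, SE 0.32, adjusted p = 0.0103). Without IRF8KO replicate 1 it was not called (-1.58, edgeR adjusted p = 0.0586).

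Adora3, the adenosine A3 receptor gene, was close to lost. It was at 15.5, 15.2, 16.6 and 8.02 CPM in WT and at 0.750, 0, 0.166 and 0.364 in IRF8KO, where 4, 0, 2 and 2 reads were counted. All knockout libraries were at or near 0 (log2 fold change -5.47, SE 1.03, adjusted p = 0.00959). Slc2a5, which encodes the fructose transporter GLUT5, was at 352, 282, 337 and 171 CPM in WT and at 20.8, 20.3, 48.5 and 40.6 in IRF8KO, a 9.20-fold fall without overlap (log2 fold change -3.20, SE 0.40, adjusted p = 0.00165). Gpr34 was at 2255, 1708, 1041 and 766 CPM in WT and at 252, 323, 213 and 358 in IRF8KO. Its WT libraries spread widely but stayed above every knockout library (5.31-fold lower, log2 fold change -2.41, SE 0.42, adjusted p = 0.00662).

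Selplg, which encodes the P-selectin ligand PSGL-1, was at 4849, 3383, 2975 and 1692 CPM in WT and at 714, 805, 1183 and 1042 in IRF8KO. The 3.64-fold fall was the least secure of the 6 (log2 fold change -1.86, SE 0.41, adjusted p = 0.0198): the call was lost when any 1 of the 4 knockout libraries was left out (edgeR adjusted p of 0.0509 to 0.0947). Cx3cr1 was at 1096, 1054, 996 and 1041 CPM in WT and at 530.4, 473, 823 and 706 in IRF8KO, a difference of -0.80 (SE 0.31, adjusted p = 0.135) between groups that did not overlap. Tmem119, a membrane protein gene used to tell microglia from other macrophages, was at 1918, 1957, 1873 and 1198 CPM in WT and at 727, 584, 1163 and 1147 in IRF8KO. The groups only just missed each other, and the difference of -1.01 (SE 0.36, adjusted p = 0.106) did not pass the test. P2ry6 and Gpr84 overlapped between the groups, with log2 differences of -0.53 (SE 0.29, adjusted p = 0.293) and 0.74 (SE 0.36, adjusted p = 0.246).

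At 9 months, 9 of the 10 genes fell in IRF8KO, against 8.68% of 14604 tested genes called lower, and the median log2 fold change was -3.42 against 0.25 for all genes. Gpr84 alone did not pass the test (-0.72, SE 0.55, adjusted p = 0.367). Libraries of the 2 groups did not overlap for the 9 genes that fell, nor for 48.8% of all tested genes. All 3 WT libraries held Y-linked transcripts only. Of the IRF8KO libraries, 1 held these only, 1 Xist only and 1 both, and the part of sex was not tested.

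P2ry12 went from 7880.1, 8420.0 and 5510.3 CPM in WT to 241, 139.9 and 354 in IRF8KO, which is 33.2-fold lower (log2 fold change -5.05, SE 0.38, edgeR adjusted p = 4.07e-06). P2ry13 went from 2873, 2969 and 2457 to 131, 147 and 198 (19.5-fold, log2 fold change -4.28, SE 0.40, adjusted p = 1.51e-05). Every WT library stood above every knockout library by more than an order of magnitude for both receptors. P2ry6, the UDP receptor gene, went from 356, 336 and 256 CPM to 106, 48.2 and 36.9, a smaller fall of 5.57-fold (log2 fold change -2.48, SE 0.44, adjusted p = 0.00141).

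Cx3cr1 fell 7.50-fold at 9 months, from 5240.1, 4182 and 3905 CPM to 1075, 377 and 547 (log2 fold change -2.91, SE 0.42, adjusted p = 0.000355). Tmem119 fell 9.37-fold, from 4424, 4207 and 3925 to 664, 211 and 629 (log2 fold change -3.23, SE 0.38, adjusted p = 7.36e-05). In both genes IRF8KO replicate 2 was the lowest library, and so it was for Irf8 itself, at 15.9 CPM against 72.9 and 138. The same library held 15.8% red blood cell markers, against 2.38% and 6.71%. Its microglial markers made up 0.388%, against 0.863% and 0.699%. The part of this mixture in its low levels was not tested. Gpr34 fell 11.4-fold (adjusted p = 0.000126) and Selplg fell too (log2 fold change -3.33, SE 0.45, adjusted p = 0.000191). Adora3 was at 58.2, 47.2 and 32.2 CPM in WT and at 1.80, 0 and 0.123 in IRF8KO, where 14, 0 and 1 reads were counted (log2 fold change -6.29, SE 1.11, adjusted p = 0.00218). Slc2a5 was at 442, 778 and 439.9 CPM in WT and at 0, 10.3 and 23.4 in IRF8KO, and it had the widest error of the 9 falls (log2 fold change -5.77, SE 1.51, adjusted p = 0.0136).

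The IRF8KO effect was larger at 9 than at 3 months for 5 genes, by the test of the difference itself, against 5.92% of 15512 tested genes called in that direction. These were P2ry12 (difference of log2 fold changes -1.93, SE 0.55, edgeR adjusted p = 0.0176), P2ry13 (-2.52, SE 0.44, adjusted p = 0.000567), P2ry6 (-1.87, SE 0.49, adjusted p = 0.00995), Cx3cr1 (-2.03, SE 0.50, adjusted p = 0.00703) and Tmem119 (-2.13, SE 0.56, adjusted p = 0.0106). For Gpr34, Selplg, Gpr84, Adora3 and Slc2a5 the difference did not pass the test. Age and experiment moved together in this comparison and cannot be told apart. The 2 ages differed mainly in their WT groups: P2ry12 averaged 374 ± 47.3 CPM (SD, n = 4) in IRF8KO at 3 months and 245 ± 107 (n = 3) at 9 months, but 2900.2 ± 1047 and 7270.1 ± 1548 in WT. In the WT group of the Batf3KO experiment, also at 3 months, P2ry12 averaged 3096 CPM, P2ry13 2847 and Cx3cr1 6937. P2ry13 and Cx3cr1 averaged 669 and 1046 in the 3-month WT group used here, and 2766 and 4443 at 9 months. The 3-month WT group also held 3.85% of neutrophil marker counts on average, against 0.000220% in WT at 9 months; their part in the difference was not tested.

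**Figure D2:**
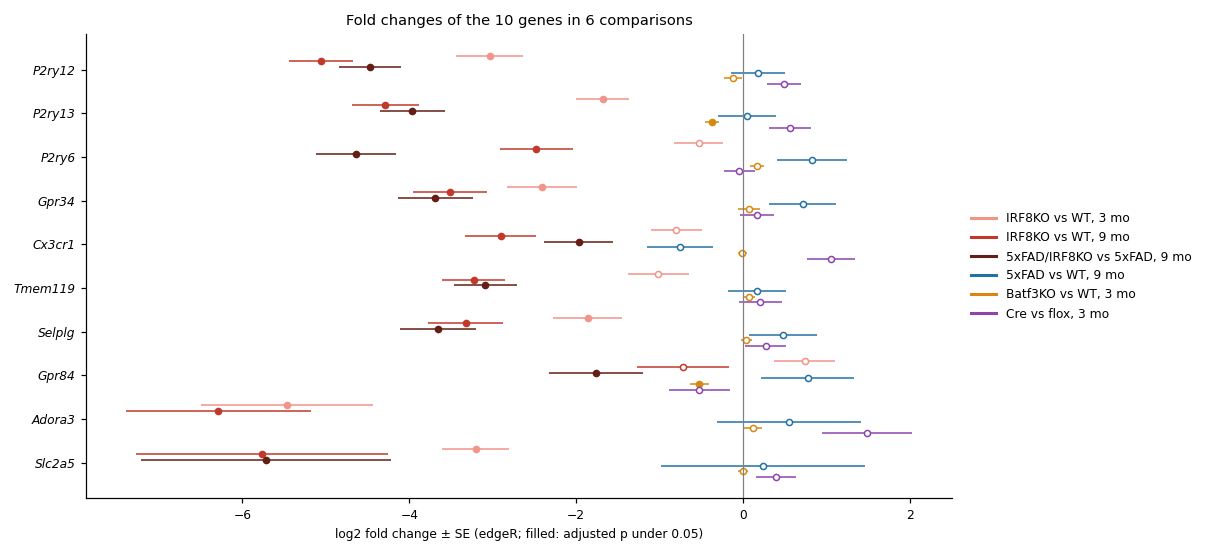
Log2 fold changes with standard errors of the 10 genes in the genotype comparisons (edgeR); filled points passed an adjusted p of 0.05. The falls in IRF8KO are larger at 9 months, where P2ry12 reached -5.05, while Batf3KO points lie between -0.52 and 0.16; in 5xFAD against WT and Cre against flox no point is filled, with Adora3 at 1.48 in the latter.

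The size of these falls depended on what the levels were set against. Scaled to the 12 pan-macrophage genes, the median of all genes moved to 1.18 at 3 months and 2.38 at 9 months, so values on this scale are read against those medians. At 3 months P2ry12 (-1.65), Gpr34 (-0.97), Adora3 (-4.15) and Slc2a5 (-1.94) remained called lower, P2ry13 (-0.39) and Selplg (-0.49) were no longer called, and P2ry6 (0.74), Cx3cr1 (0.42) and Tmem119 (0.25) turned positive. Gpr84 was called higher on this scale (2.10), where 0.701% of all genes were called lower and 24.5% higher. The part of neutrophils and other cells in that call was not tested. At 9 months 7 of the 10 genes remained lower (2.87% of all genes called lower): P2ry12 (-2.91), P2ry13 (-2.11), Gpr34 (-1.44), Cx3cr1 (-0.90), Tmem119 (-1.18), Selplg (-1.32) and Adora3 (-4.53). The median of the 10 genes was -0.44 at 3 months and -1.38 at 9 months.

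Per 1000 pan-macrophage counts, P2ry12 stood at 50.3 ± 7.30 (SD, n = 4; 43.0 to 58.0) in 3-month WT and at 15.99 ± 1.44 (14.5 to 17.96) in IRF8KO. At 9 months it stood at 132 ± 16.04 (n = 3) in WT and 17.5 ± 9.17 in IRF8KO. Cx3cr1 did otherwise, at 19.9 in 3-month WT and 26.8 in IRF8KO, and at 81.3 and 43.6 at 9 months. The mixture within the 10 genes, which no scaling alters, shifted too: P2ry12 made up 24.9% ± 2.57 of their counts in 3-month WT and 10.8% ± 1.56 in IRF8KO, and 24.8% ± 2.09 and 9.46% ± 3.05 at 9 months. Over the same groups Cx3cr1 took 9.82% ± 3.23, 17.8% ± 1.22, 15.4% ± 1.92 and 24.5% ± 4.69, and Gpr84 took 0.314% ± 0.034, 1.82% ± 0.31, 0.233% ± 0.070 and 1.73% ± 0.63. P2ry12 thus gave up share and Cx3cr1 and Gpr84 gained it at both ages. Neutrophil and monocyte markers were higher in the same IRF8KO libraries, and the part of other cells in these shares was not tested.

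**Figure D3:**
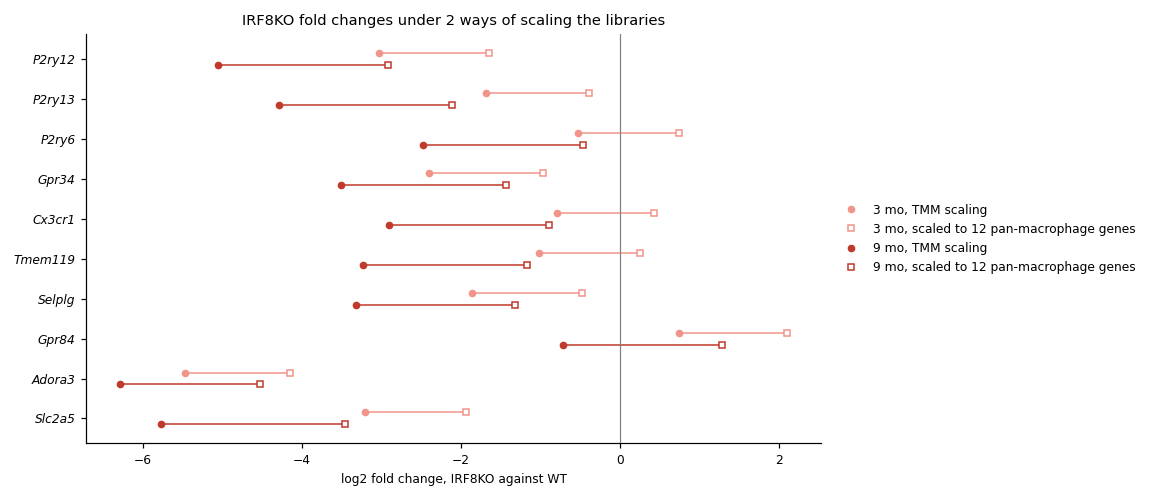
Log2 fold changes of the 10 genes with TMM scaling against scaling to 12 pan-macrophage genes. P2ry12, Gpr34, Adora3 and Slc2a5 lie below 0 on both scales at 3 months, while Cx3cr1 moves from -0.80 to 0.42.

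**Figure D4:**
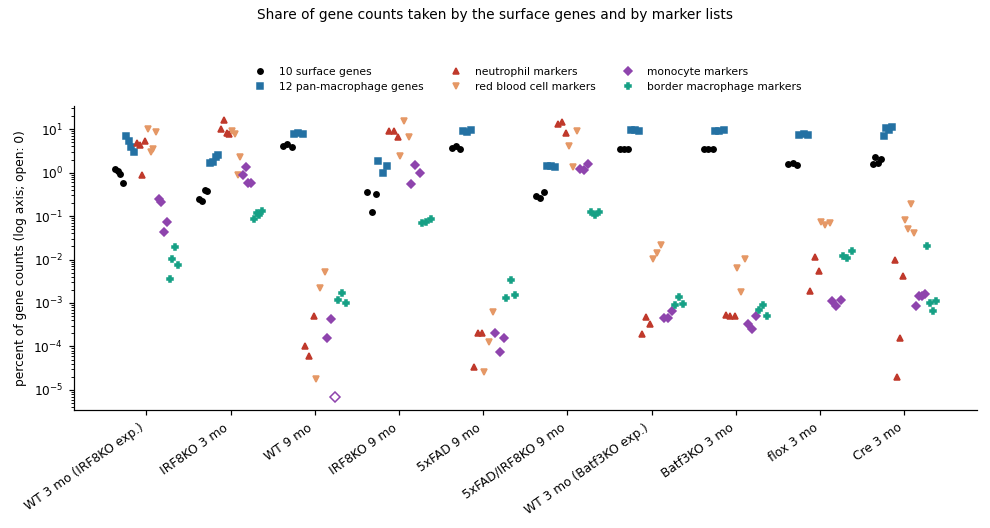
Share of all gene counts (percent, log axis) taken in each library by the 10 genes together, the pan-macrophage genes and marker lists. On average the 10 genes take 0.965% in 3-month WT of the IRF8KO experiment and 0.314% in IRF8KO. At 9 months they take 4.15% in WT and 0.269% in IRF8KO.

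The genomic neighbours gave the local background. Med12l, which encloses P2ry12 and P2ry13, reached at most 67.0 CPM in any library, had a log2 difference of -1.15 at 3 months (adjusted p = 0.231) and fell at 9 months (-2.31, adjusted p = 0.00648). P2ry14, the UDP-sugar receptor gene of the same cluster, was at or below 6.36 CPM on average in every group and was not called at 9 months (2.95, adjusted p = 0.408). Of the nearest genes on either side of Tmem119 and Selplg, the actin regulator gene Coro1c rose at 3 months (1.57, adjusted p = 0.0329) and was not called at 9 months (-0.0023, adjusted p = 0.997). Iscu, which serves iron-sulfur cluster assembly, was not called at 3 months (-0.88, adjusted p = 0.128) and fell in 5xFAD/IRF8KO against 5xFAD (-1.05, adjusted p = 0.0283).

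Between 5xFAD and WT at 9 months, none of the 10 genes passed the test with edgeR, none with DESeq2, and none had an unadjusted p under 0.05; 1.99% of 14604 genes were called. The largest difference was in P2ry6, at 666, 615 and 487 CPM in 5xFAD against 356, 336 and 256 in WT (0.83, SE 0.42, adjusted p = 0.531). Gpr84 differed by 0.77, and Gpr34 was at 5582, 5587 and 4640.1 against 3332, 3416 and 2428 (0.71, SE 0.40, adjusted p = 0.631). For P2ry6, Gpr84 and Gpr34 all 5xFAD libraries were above all WT libraries, as they were for Selplg and Adora3; 39.0% of all genes had no overlap between these groups. Cx3cr1 had the only negative value, at 3937, 2146 and 2196 CPM in 5xFAD (-0.76, SE 0.40, adjusted p = 0.561), and its highest library overlapped WT. P2ry12, at 7689.8, 9073 and 9255 CPM in 5xFAD, differed from WT by 0.18 (SE 0.32).

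The calls depended on the knockout libraries in the model. With the 5xFAD and WT libraries alone, 43.5% of 10452 genes were called, and so were 4 of the 10: P2ry6 (0.74, SE 0.17, edgeR adjusted p = 0.00211), Gpr34 (0.63, adjusted p = 0.00714) and Gpr84 (0.71, adjusted p = 0.00621) higher, and Cx3cr1 lower (-0.86, adjusted p = 0.00229). The standard errors were at most 0.26, against 0.32 to 1.22 with the knockout libraries. By the expressed sex transcripts, all 3 WT libraries held Y-linked transcripts only and 2 of the 3 5xFAD libraries Xist only; Gpr34 is X-linked, and the part of sex was not tested.

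Within 5xFAD mice, loss of Irf8 lowered all 10 genes, against 9.72% of genes called lower. The median log2 fold change was -3.83, against 0.24 for all genes, and stayed -3.83 with Adora3 set at its bound. P2ry12 fell 22.1-fold, from 7689.8, 9073 and 9255 CPM to 472, 315 and 477 (log2 fold change -4.47, SE 0.37, edgeR adjusted p = 6.67e-06). P2ry6 fell 24.9-fold, from 666, 615 and 487 to 32.0, 32.7 and 11.96 (-4.64, SE 0.48, adjusted p = 3.13e-05), a fall within the errors of that of P2ry12. Adora3 was at 79.3, 66.5 and 66.0 CPM in 5xFAD, and no read was counted in any 5xFAD/IRF8KO library, so that it was at least 843-fold lower, from a floor of 3 counts over the group. Of the 5xFAD/IRF8KO libraries, 2 held both Xist and Y-linked transcripts and 1 the latter only, and the part of sex was not tested.

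The other falls in 5xFAD/IRF8KO ranged from 3.38-fold to 52.5-fold. Slc2a5 was at 1034, 479 and 532 CPM in 5xFAD and at 20.5, 21.7 and 0 in 5xFAD/IRF8KO (adjusted p = 0.0141). P2ry13 fell 15.6-fold (adjusted p = 2.34e-05), Gpr34 12.9-fold (adjusted p = 9.54e-05), Selplg 12.6-fold (adjusted p = 0.000112) and Tmem119 8.50-fold (adjusted p = 0.000104). Cx3cr1 fell least among the genes that also fell in IRF8KO against WT, 3.92-fold, from 3937, 2146 and 2196 CPM to 605, 597 and 1066 (adjusted p = 0.00402). Gpr84 was at 139, 108 and 108 CPM in 5xFAD and at 9.08, 50.0 and 53.0 in 5xFAD/IRF8KO (3.38-fold lower, adjusted p = 0.0355), and this call was lost when any 1 of the 5xFAD libraries was left out (edgeR adjusted p of 0.0619 to 0.111). Scaled to pan-macrophage genes, where the median of all genes was 2.78, 6 genes remained lower (3.1% of all genes called lower), and Cx3cr1 (0.62) and Gpr84 (0.81) turned positive without a call.

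Between 5xFAD/IRF8KO and IRF8KO, none of the 10 genes was called with edgeR (3 had an unadjusted p under 0.05; 0.164% of genes were called). P2ry6 was lowest in 5xFAD/IRF8KO of all 10 groups, at 25.6 ± 11.8 CPM (SD, n = 3) against 63.8 ± 37.1 in IRF8KO, without overlap (-1.33, SE 0.43, adjusted p = 0.205). Adora3, at 0 against 15 counts in IRF8KO, was at least 7.48-fold lower, but 14 of the 15 counts were in IRF8KO replicate 1; without that library both groups were under the floor of 3 counts and no fold can be given. The interaction, which asks whether Irf8 loss acts differently with and without the 5xFAD transgenes, called none of the 10 with edgeR (2 had an unadjusted p under 0.05; 0.438% of genes called). Its largest values were those of P2ry6 (-2.16, SE 0.60, adjusted p = 0.122) and Adora3 (adjusted p = 0.152). DESeq2 called both genes in both tests: P2ry6 with adjusted p = 0.0434 and Adora3 with 0.0112 against IRF8KO (5.32% of genes called), and 0.0226 and 0.0178 for the interaction (6.35%).

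Batf3 loss left most of the set where it was. P2ry13 and Gpr84 were lower in Batf3KO, 2 of 10 against 2.42% of 13128 genes called lower, and the median of the 10 was 0.02 against 0.00 for all genes. P2ry13 was at 2783, 2653 and 3104 CPM in WT and at 2187, 2155 and 2003 in Batf3KO, which is 1.30-fold lower (log2 fold change -0.37, SE 0.08, edgeR adjusted p = 0.0204). Gpr84 was at 179, 168 and 143 CPM in WT and at 114, 88.6 and 125 in Batf3KO, 1.44-fold lower (-0.52, SE 0.12, adjusted p = 0.0229). The libraries of these 2 genes did not overlap, nor did those of 23.2% of all genes. Both calls were lost with all 33 libraries in the model, and leaving out single libraries left 0 to 2 of them. P2ry13 was lost without any 1 of the Batf3KO libraries (adjusted p of 0.0534 to 0.0652) and Gpr84 without Batf3KO replicate 1 or 2 or WT replicate 1 or 2 (0.0715 to 0.108).

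For the other 8 genes the difference lay between -0.12 and 0.16, with standard errors of at most 0.14. P2ry12 was at 2712, 3190.2 and 3386 CPM in WT and at 2895, 2966 and 2373 in Batf3KO (-0.12, SE 0.11, adjusted p = 0.605). Adora3, at 59.0, 66.0 and 61.2 against 65.9, 68.3 and 59.8 CPM, and Slc2a5, at 1799, 1712 and 1579 against 1576, 1589.7 and 1732, overlapped between the groups. The Batf3KO effect was less negative than the 3-month IRF8KO effect, by the test of the difference, for P2ry12 (2.80, adjusted p = 0.00195), Gpr34 (2.36, adjusted p = 0.0140), Selplg (1.78, adjusted p = 0.0452), Adora3 (5.54, adjusted p = 0.000597) and Slc2a5 (3.08, adjusted p = 0.00208), with 1.17% of 16426 genes called in that direction. The difference for Selplg was lost in 11 refits with 1 library left out, among them each Batf3KO, IRF8KO and Batf3KO-experiment WT library and replicate 2 of the other WT group (edgeR adjusted p of 0.0531 to 0.143). That for Gpr34 was lost without Batf3KO replicate 1 or WT replicate 1 or 2 of that experiment (0.0552 to 0.0666). The differences for Gpr34 and Selplg were also lost with scaling to the pan-macrophage genes, where the median of all genes was -1.22. Experiment moved with the knockout in this comparison of effects and cannot be told apart from it.

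In the conditional knockout, none of the 10 genes was called between Cre and flox, and neither was any of the 15512 genes (0.0% called; 1407 genes, 4 of the 10 among them, had an unadjusted p under 0.05 with edgeR, and DESeq2 called 162 genes and 1 of the 10). P2ry12 was at 1864, 1822 and 1679 CPM in flox and at 1813, 2844, 2517 and 2646 in Cre (0.49, SE 0.20, adjusted p = 0.475). Cx3cr1 was at 967, 1331 and 934 CPM in flox and at 1169, 2770.3, 2233 and 2553 in Cre (1.06, SE 0.29, adjusted p = 0.245). Adora3 was at 12.7, 6.11 and 5.67 CPM in flox and at 3.81, 26.5, 31.3 and 26.7 in Cre (1.48, SE 0.55, adjusted p = 0.398). In all 3 genes the first Cre library lay within or below the flox range and the other 3 lay above it.

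That first library is the one labelled Cre replicate 1, whose Irf8 level was that of flox. Without it, 6.24% of 15264 genes were called, and 5 of the 10. P2ry12 was then higher in Cre by 1.54-fold (log2 fold change 0.63, SE 0.18, edgeR adjusted p = 0.0390), P2ry13 by 1.66-fold (adjusted p = 0.0230), Cx3cr1 by 2.42-fold (1.27, SE 0.20, adjusted p = 0.000170) and Adora3 by 3.57-fold (1.83, SE 0.27, adjusted p = 0.000100). Gpr84 was lower by 2.05-fold (-1.03, SE 0.23, adjusted p = 0.00588): it was at 109, 177 and 94.6 CPM in flox, at 172 in the library labelled Cre replicate 1 and at 46.0, 59.4 and 74.3 in the other Cre libraries. P2ry12, P2ry13 and Adora3, higher here with TMM scaling, had fallen in the germline knockout at 3 months. Per 1000 pan-macrophage counts, P2ry12 stood at 26.8, 28.6 and 22.3 in those other Cre libraries, against 23.7 to 28.0 in flox. P2ry13 stood at 9.34, 8.11 and 7.76, against 6.56 to 8.98. Cx3cr1 (21.5 to 26.1) stayed above its flox range of 13.9 to 17.3, and Gpr84 (0.434 to 0.675) below its range of 1.41 to 2.31. The Cre cells were sorted as YFP-positive, and the part of sorting was not tested. Neutrophil markers made up at most 0.0112% of counts in these groups.

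**Figure D5:**
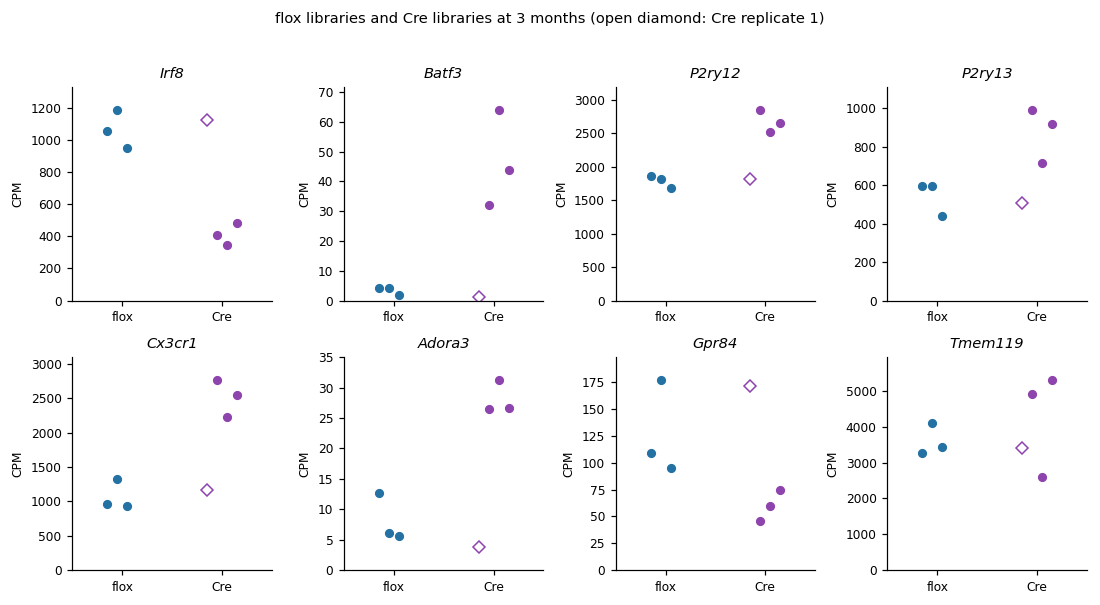
Levels of Irf8, Batf3, P2ry12, P2ry13, Cx3cr1, Adora3, Gpr84 and Tmem119 (CPM, linear axis) in the 3 flox and 4 Cre libraries. An open diamond marks the library labelled Cre replicate 1. That library has 1126 CPM of Irf8, as flox does, and 3.81 CPM of Adora3 against 26.5 to 31.3 in the other Cre libraries.

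The conditional effect differed from the germline effect at 3 months for 7 genes, by the test of the difference with all libraries, and was less negative in each (4.37% of 17361 genes called in that direction). The differences of log2 fold changes were 3.61 for P2ry12 (SE 0.45, edgeR adjusted p = 0.000482), 2.33 for P2ry13, 2.65 for Gpr34, 1.94 for Cx3cr1, 2.22 for Selplg, 7.07 for Adora3 and 3.69 for Slc2a5, all with adjusted p-values of 0.0151 or less. Without the library labelled Cre replicate 1, 8 genes were called (6.63% of genes), Gpr84 (-1.69, adjusted p = 0.0349) being the one added. Cx3cr1 (edgeR adjusted p of 0.0510 to 0.0536) and Selplg (0.0517 to 0.0582) were not called without flox replicate 1 or 3. This comparison and that of the Batf3KO effect share the 3-month WT and IRF8KO libraries.

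The 2 WT groups at 3 months also differed from each other. In the WT group of the IRF8KO experiment, 8 of the 10 genes were lower than in that of the Batf3KO experiment, against 16.3% of 14621 genes called lower (42.8% called in either direction), and the median was -2.09 against 0.12. Cx3cr1 was at 996 to 1096 CPM against 6801 to 7061 (-2.64, SE 0.32, edgeR adjusted p = 0.000326), Slc2a5 at 171 to 352 against 1579 to 1799 (-2.49, adjusted p = 0.000453), and Tmem119 at 1198 to 1957 against 8121 to 10107 (-2.31, adjusted p = 0.00102). P2ry12 and Gpr34 did not pass the test (-0.01, SE 0.39, adjusted p = 0.988, and -0.41, SE 0.42, adjusted p = 0.463) and overlapped between these groups. Selplg (-1.41) lost its call without any 1 library of the Batf3KO experiment's WT group or without replicate 2 of the other (edgeR adjusted p of 0.0545 to 0.0741). The WT group of the IRF8KO experiment held neutrophil and red blood cell transcripts, and oligodendrocyte markers at 0.548% to 6.32% of counts against 0.0501% to 0.0522%. By the expressed sex transcripts, 3 of its 4 libraries held Y-linked transcripts only and 1 neither kind, while all 3 libraries of the other group held Xist only. The part of these differences was not tested.

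Across all 10 groups, each gene had its own order. P2ry12 was highest in 5xFAD (8672 CPM) and WT at 9 months (7270.1), whose libraries overlapped. The 3-month groups other than IRF8KO, the conditional Cre group among them, stood below and overlapped their neighbours within that stretch (1789 to 3096 CPM). The 3 germline knockout groups stood below all others (245 to 421). Gpr34 had the same outline, except that 5xFAD (5269.7 CPM) and WT at 9 months (3059) did not overlap. Tmem119, Cx3cr1 and Slc2a5 were instead highest in the 2 groups of the Batf3KO experiment, at 9193 and 9097, 6626 and 6937, and 1633 and 1697 CPM. Neighbours in the order of Gpr84 overlapped in every case, from 163 CPM in the WT group of the Batf3KO experiment to 36.3 in that of the IRF8KO experiment, a 4.502-fold range, against 35.4-fold for P2ry12, 24.7-fold for P2ry6, 19.0-fold for P2ry13 and 10.96-fold for Cx3cr1.

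Over the 10 group means of log2 CPM, which share libraries and the marker shifts above, P2ry12 and Gpr34 were the most alike of all pairs (Pearson r = 0.985) and P2ry12 and Gpr84 the least (r = 0.558). Among 11113 other genes, the most like P2ry12 were Upk1b (r = 0.975), Angptl7 (0.971) and Otulinl (0.968). Gpr183 (0.985) and Lair1 (0.980) were among those most like Gpr34, and those most like Tmem119 were Abhd12 (0.993), Rab3il1 (0.991) and Lgmn (0.989). Selplg was followed most closely by Tmem173 (0.993), Slc2a5 by Cmklr1 (0.990), P2ry6 by Asb10 (0.986), Cx3cr1 by Icam1 (0.982), P2ry13 by Pip4p1 (0.981) and Gpr84 by Tmbim6 (0.953). Adora3 was followed by Lag3 (0.989), Fam89a (0.987) and Sall1 (0.986), the last a transcription factor gene of microglia. Lgmn belongs to the pan-macrophage reference.

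Other genes of resting microglia fell alongside. Of 20 further homeostatic genes, 9 fell and 0 rose in IRF8KO at 3 months (median -1.42), 18 and 0 at 9 months (median -2.66), and 19 and 0 in 5xFAD/IRF8KO against 5xFAD (median -2.89). Among all tested genes 3.24% were called lower and 4.15% higher at 3 months (median -0.02), 8.68% and 19.6% at 9 months (median 0.25), and 9.72% and 18.0% in 5xFAD/IRF8KO against 5xFAD (median 0.24); the counts of the lists below are read against these shares. At 3 months the cystatin gene Cst3 fell by 3.13 on the log2 scale (adjusted p = 0.0115) and Sparc by 2.26 (adjusted p = 0.0188). At 9 months Slco2b1 fell from 1486 ± 155 to 69.3 ± 4.24 CPM (SD, n = 3; edgeR adjusted p = 8.01e-07). In 5xFAD against WT, Cst3 (1.30, adjusted p = 0.0380) and Fcrls (1.02, adjusted p = 0.0405) rose, and in Batf3KO Rtn4rl1 (-0.42) and Lpcat2 (-0.37) fell.

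Other genes of the purinergic system were read from lists. Of 16 other nucleotide and adenosine receptor genes, 8 were tested at 3 months; edgeR called none, and 1 had an unadjusted p under 0.05. Of 10 tested at 9 months, 1 rose and 2 fell (19.6% and 8.68% of all genes). Adora1, the adenosine A1 receptor gene, rose in IRF8KO from 1.15 ± 0.82 to 60.3 ± 44.0 CPM (5.81, adjusted p = 0.000954), and P2rx7, the ATP-gated channel gene, fell from 203 ± 31.7 to 45.4 ± 36.7 (-2.32, adjusted p = 0.0487). P2ry10b, with no read in IRF8KO, was at least 334-fold lower. Neuron markers (6 genes) averaged 0.167% of counts in IRF8KO and 0.00046% in WT at 9 months; their part in the rise of Adora1 was not tested. In 5xFAD/IRF8KO against 5xFAD, Adora1 rose (4.14, adjusted p = 0.00451) and P2rx4 fell (-0.91, adjusted p = 0.0149).

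Among 14 genes that handle extracellular nucleotides and adenosine, 1 rose at 3 months: Nt5e, the ecto-nucleotidase that makes adenosine from AMP, from 4.90 ± 4.23 to 49.2 ± 14.4 CPM (3.20, adjusted p = 0.0129). At 9 months 3 of 12 tested rose and 4 fell (19.6% and 8.68% of all genes), with Enpp2 (6.69, adjusted p = 0.000371) and the adenosine kinase gene Adk (4.15, adjusted p = 0.000609) among the rises and Enpp1 (-4.59, adjusted p = 0.00885) among the falls. Oligodendrocyte markers averaged 0.889% of counts in the same IRF8KO libraries and 0.0258% in WT, and astrocyte markers 0.255% and 0.0212%; their part in the rises was not tested. In 5xFAD/IRF8KO against 5xFAD, Entpd1, the CD39 gene that breaks down ATP and ADP, fell from 636 ± 24.2 to 173 ± 86.8 CPM (-1.98, adjusted p = 0.000734), and the nucleoside transporter gene Slc29a1 fell too (-1.55, adjusted p = 0.00547). Enpp2 also fell in Batf3KO (-3.20, adjusted p = 0.000837).

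Of 19 genes for G proteins and regulators that act downstream of such receptors, 2 rose and 1 fell at 3 months (4.15% and 3.24% of all genes). Rgs10, a microglial regulator of Gi signalling, fell from 919 ± 412 to 168 ± 25.7 CPM (-2.53, adjusted p = 0.00371), while Gnai3 (1.71, adjusted p = 0.00479) and Arrb2 (1.24, adjusted p = 0.0431) rose. At 9 months 4 rose and 4 fell, a share of rises near that of all genes (19.6%; 8.68% fell): Gna15 fell from 478 ± 57.5 to 27.3 ± 22.3 CPM (-4.28, adjusted p = 0.000303) and Adcy7 by 3.09 on the log2 scale, while Rgs18, with no read in WT, was at least 241-fold higher. Rgs18 also held 937 counts in the 3-month WT group of the IRF8KO experiment, and no read in that of the Batf3KO experiment. In 5xFAD/IRF8KO against 5xFAD, 3 rose and 5 fell, the channel gene Kcnk13, tied to P2RY12 signalling in microglia, among the falls (-3.10, adjusted p = 0.00827). Neutrophil and monocyte markers were higher in the knockout libraries of these comparisons, and the part of other cells in the rises was not tested.

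For Selplg and Slc2a5, partners were read from lists of their own. Of 14 genes of selectins and of the enzymes that make their ligands, 2 rose and 0 fell among 12 tested at 3 months (4.15% and 3.24% of all genes), Gcnt1, a branching enzyme of O-glycans, among the rises (1.79, adjusted p = 0.0281). At 9 months 1 rose and 4 fell (19.6% and 8.68% of all genes), and Gcnt1 (-2.24, adjusted p = 3.65e-05), the tyrosine sulfation gene Tpst2 (-2.03, adjusted p = 0.000851) and the sialyltransferase gene St3gal6 (-2.01, adjusted p = 6.07e-05) were among the falls. Neutrophil markers were higher in the same libraries, and their part was not tested. Of 11 other hexose transporter genes, 7 were tested at each age. At 3 months 1 rose and 0 fell, and at 9 months 1 rose and 1 fell. Slc2a3, the neuronal and leukocyte glucose transporter gene, rose from 27.3 ± 12.8 to 275 ± 47.2 CPM at 3 months (3.25, adjusted p = 0.00139) and from 2.60 ± 1.59 to 475 ± 240 at 9 months (7.10, adjusted p = 2.47e-05), the reverse of Slc2a5. The part of neutrophils, neurons and other cells in that rise was not tested.

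Of 13 factors known to control homeostatic genes, 3 fell at 3 months (3.24% of all genes), namely Batf3 (-5.33, adjusted p = 0.00543), Sall1 (-4.85, adjusted p = 0.0268) and the targeted gene Irf8 itself (-1.12, adjusted p = 0.0415). At 9 months 9 fell, Irf8 again among them (8.68% of all genes), Sall1 from 294 ± 31.7 to 6.29 ± 10.6 CPM (-5.69, adjusted p = 0.0109) and Cebpa from 45.9 ± 15.2 to 5.71 ± 3.67 (-3.17, adjusted p = 0.00340). In 5xFAD/IRF8KO against 5xFAD 5 fell, with Irf8 among them (9.72% of all genes), and Sall1, with no read in 5xFAD/IRF8KO, was at least 2131-fold lower. Mef2a (-1.49, adjusted p = 0.0157) and the TGF-beta receptor gene Tgfbr1 (-1.20, adjusted p = 0.0448) fell in 5xFAD against WT, with 0 rising.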

How the data were processed

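The authors deposited raw gene-level read counts for each library; STAR 2.5.2b, Picard 2.17.11, featureCounts and the mm10 build are named in the submitters' processing notes. The layout is that of STAR gene counts, and the column that ignores strand was used. Of 54146 Ensembl identifiers, 54079 were found in GENCODE M21 with the version ignored. Per the labels, cDNA was amplified with SMART-Seq v4, which carries no molecular identifiers, so counting intervals and floors cover counting error only. Counts in genes were 47.3% to 78.6% of reads; the rest stayed out of library sizes and tests.

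Groups were taken from titles and genotypes. Genes were tested with edgeR 4.0.16 in R 4.3.3 (quasi-likelihood test, default low-count filter, TMM factors, Benjamini-Hochberg adjustment over all tested genes, called at an adjusted p under 0.05), and every adjusted p is from this test unless DESeq2 1.42.0 is named. The 4 groups at 9 months shared 1 model. Standard errors were derived from the F statistic. CPM levels used TMM factors over all 33 libraries. Calculations were tested on simulated data.

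All 10 genes were named in every comparison. Of each further list, up to 4 genes per comparison were eligible for naming (a few such genes are not reported here): called, at least 5 CPM in the higher group, no overlap between libraries, largest fold change. For likeness, the 3 genes with the highest r were eligible. The 10 genes and all lists were chosen with earlier results of these data known. The alternatives were DESeq2-type size factors, DESeq2, no low-count filter, scaling to 12 pan-macrophage genes, a replicate block (across the 2 WT groups added after seeing the data), all 33 libraries in 1 model, only the 2 groups compared, and each library left out in turn.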

Additional observations from a re-analysis of the deposited data

Results flagged for a closer look

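In the 3-month WT group of the IRF8KO experiment, replicate 4 stood apart from the other 3 libraries for Tmem119 (1198 CPM, the lowest) and Adora3 (8.02 CPM, the lowest). These were 2 of 30 sets of 4 libraries checked, and chance flags about 1 in 20.

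The effect of IRF8KO differed between 9 and 3 months, by the test of the difference in edgeR, for P2ry12 (-1.93), P2ry13 (-2.52), P2ry6 (-1.87), Cx3cr1 (-2.03) and Tmem119 (-2.13, log2 scale). Age and experiment cannot be told apart here.

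The conditional effect differed from the 3-month germline effect for P2ry12 (3.61), P2ry13 (2.33), Gpr34 (2.65), Cx3cr1 (1.94), Selplg (2.22), Adora3 (7.07) and Slc2a5 (3.69). The Batf3KO effect differed from the germline Irf8 effect for P2ry12 (2.80), Gpr34 (2.36), Selplg (1.78), Adora3 (5.54) and Slc2a5 (3.08). With scaling to the pan-macrophage genes, P2ry13, Gpr34, Cx3cr1 and Selplg were not called for the conditional effect, nor Gpr34 and Selplg for the Batf3KO effect. Both sets of differences rest on the same 3-month WT and IRF8KO libraries, whose WT group stood below the other 3-month WT group for 8 of the 10 genes. Experiment and genotype cannot be told apart in either set.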

How the results depend on the processing

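Of 1829 values of the 10 genes under alternative settings, 1640 kept their direction and their side of the threshold, 65 lost a call, 49 gained one and 75 changed sign. Of the 75, 2 were called as reported (Cx3cr1 and Gpr84 in 5xFAD/IRF8KO against 5xFAD, scaled to pan-macrophage genes), and 1 other was called under the alternative setting. Depth limits Adora3 and Slc2a5 most, with 0 to 15 counts of Adora3 over each 9-month knockout group.

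Scaled to the pan-macrophage genes, the values that changed sign were as follows (log2). In IRF8KO at 3 months P2ry6 was 0.74, Cx3cr1 0.42 and Tmem119 0.25, and at 9 months Gpr84 was 1.27. In 5xFAD against WT P2ry12 was -0.37, P2ry13 -0.52, Tmem119 -0.40, Selplg -0.084, Adora3 -0.0078 and Slc2a5 -0.35. Cx3cr1 was 0.62 and Gpr84 0.81 in 5xFAD/IRF8KO against 5xFAD, with 6 genes called. Slc2a5 against IRF8KO was -0.085, and for the interaction Gpr34 was 0.34 and Selplg 0.19. In Batf3KO Cx3cr1 was 0.023, with 1 gene called. In Cre against flox Gpr34 was -0.22, Tmem119 -0.24, Selplg -0.18 and Slc2a5 -0.094. The 9- against 3-month effect called 3 genes. Between the conditional and germline effects P2ry6 was -1.19 and Tmem119 -0.49; between the Batf3KO and IRF8KO effects P2ry6 was -0.54, Cx3cr1 -0.40 and Tmem119 -0.14; between WT groups P2ry12 was 0.64 and Gpr34 0.19. The cause was not tested.

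In 5xFAD against WT P2ry13 was -0.038 with DESeq2-type size factors, -0.04 with DESeq2 and -0.037 with only the 2 groups, where 4 genes were called. Between 5xFAD/IRF8KO and IRF8KO, 1 of the 10 was called without a filter, 2 with DESeq2 and 2 with all 33 libraries; the interaction called 2 under each of these. In Cre against flox 2 were called without a filter and 1 with DESeq2. The Batf3KO against IRF8KO effect called 9 with DESeq2. With all 33 libraries Batf3KO called 0, with Selplg at -0.022 and Slc2a5 at -0.056.

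Same-numbered libraries correlated at -0.188 to 0.170 and share only a number. With the replicate block, Batf3KO called 0 of the 10, the conditional against germline effect 4 and the Batf3KO against IRF8KO effect 3; Slc2a5 in the interaction was -0.16 and Tmem119 in Cre against flox -0.0096. Between the WT groups, which come from different experiments, a replicate block across them, added after seeing the data, called the same number, 8, with P2ry12 at 0.15.

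Leaving out 1 library at a time gave these ranges. In 5xFAD against WT they were -0.0059 to 0.30 for P2ry12, -0.053 to 0.10 for P2ry13 and -0.21 to 0.57 for Slc2a5. Between the knockout groups at 9 months they were -0.25 to 0.66 for P2ry13, -0.049 to 0.86 for Gpr34, -0.16 to 0.67 for Cx3cr1, -0.064 to 0.53 for Tmem119, -0.20 to 0.62 for Selplg, -0.60 to 0.24 for Gpr84 and -0.30 to 1.40 for Slc2a5. For the interaction they were -0.30 to 0.60 for P2ry13, -0.77 to 0.14 for Gpr34, -0.19 to 0.41 for Tmem119, -0.64 to 0.19 for Selplg and -0.49 to 1.21 for Slc2a5. In Batf3KO 0 to 2 genes were called, with -0.071 to 0.27 for Gpr34, -0.045 to 0.028 for Cx3cr1, -0.023 to 0.081 for Selplg and -0.030 to 0.026 for Slc2a5. In Cre against flox 0 to 5 were called, with -0.17 to 0.058 for P2ry6. The 9- against 3-month effect called 5 to 8, with -3.71 to 0.051 for Adora3, and the Batf3KO against IRF8KO effect 3 to 7. Between WT groups P2ry12 ranged from -0.27 to 0.23.

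Counts over all genes that moved most were, against 970 in IRF8KO at 3 months, 1655 without a filter, 3302 with pan-macrophage scaling, 2581 with DESeq2 and 3300 with all 33 libraries. Against 4136 at 9 months they were 8408 with pan-macrophage scaling and 6836 with all 33 libraries, and 4054 in 5xFAD/IRF8KO became 9182 higher and 453 lower with pan-macrophage scaling, and 6783 with all 33 libraries. Against 290 in 5xFAD they were 163 without a filter, 37 with pan-macrophage scaling, 105 with the block, 785 with DESeq2, 806 with all 33 libraries and 4546 with the 2 groups alone. Between 5xFAD/IRF8KO and IRF8KO 24 became 320, 8, 0, 838, 1452 and 0 in the same order, and for the interaction 64 became 238, 28, 9, 912 and 1082. In Batf3KO 503 became 998 without a filter, 216 with the block, 809 with DESeq2 and 10 with all 33 libraries. In Cre against flox 0 became 618 without a filter, 162 with DESeq2, 3 with all 33 libraries and 952 without the library labelled Cre replicate 1. The 9- against 3-month effect went from 3717 to 6342 with all 33 libraries, the conditional against germline effect from 1223 to 4217 (pan-macrophage scaling), 293 (block) and 2287 (DESeq2), and the Batf3KO against IRF8KO effect from 529 to 1813, 252 and 1500.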
